A study of Mus musculus with 8 samples.

Results

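The 7 mouse genes described here encode the class II major histocompatibility complex (MHC) proteins and their closest partners, and were chosen by symbol from the 21848 genes of the deposited matrices. They are H2-Aa, H2-Ab1, H2-Eb1, H2-DMa, H2-DMb1, Cd74 and Ciita, and all 7 were found. Right sensorimotor cortex was collected 6 days after photothrombotic stroke (PT), in which light activates the dye Rose Bengal and clots the vessels below. The 8 mice carried the genotype Bl/J6 and were adult and female by the labels. Every mouse had PT and an osmotic minipump placed 2 days earlier. In 4 mice the pump delivered saline (control), and in 4 mice it delivered 2.4 U ancrod per day, an enzyme that removes fibrinogen from the blood. Uninjured cortex was not analysed here, so every level below is a level after PT. Pieces held the lesion and the spared tissue around it, with the meninges removed. Red blood cells were lysed and myelin was taken out with beads, and no cell type was enriched. Each mouse gave 1 library, mice 1 to 3 of each group formed batch 1 (injury and sequencing), and mouse 4 of each group formed batch 2.

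Libraries held 97861434 to 142139441 UMIs (counted RNA molecules), and those of the ancrod mice were all deeper (at least 126682918) than those of the saline mice (at most 122758649). Droplets with at least 2000 UMIs and under 20% mitochondrial UMIs numbered 46216, of which 44072 cells remained after doublets were removed, 4874 to 5962 per mouse. Cells were clustered without the class II genes and named from markers, which gave 21 classes written as "-like", and 7486 cells stayed unnamed. No cluster met the naming rule for oligodendrocytes. Of 45940 distinct barcodes among these droplets, 274 (0.596%) occurred in more than 1 library. Levels are given as CPM, the UMIs of a gene per 1000000 UMIs of all cells of that class in 1 mouse, so the mouse is the replicate.

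On GRCm39, 5 of the 7 genes lie within 197 kb of chromosome 17. H2-DMa spans chr17:34338515-34358958, H2-DMb1 chr17:34372046-34379204 and H2-Ab1 chr17:34476663-34488393, all on the plus strand. H2-Aa spans chr17:34493404-34506798 on the minus strand and overlaps the span of H2-Eb1, chr17:34504236-34535648 on the plus strand. Cd74 spans chr18:60936899-60945731 and Ciita chr16:10297923-10347694, both on the plus strand.

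Class II molecules present peptides from ingested proteins to CD4+ T cells and are known from dendritic cells, B cells and activated macrophages. In the brain, resting microglia carry little, and border-associated macrophages and infiltrating myeloid cells carry more. H2-Aa and H2-Ab1 encode the alpha and the beta chain of I-A, and H2-Eb1 encodes the beta chain of I-E. Cd74 encodes the invariant chain, which fills the groove of new class II molecules and steers them to endosomes, and is also a cell-surface receptor for the cytokine MIF. H2-DMa and H2-DMb1 encode H2-DM, which exchanges the last fragment of the invariant chain for antigen peptides. Ciita encodes the master coactivator that the promoters of the other genes need. It binds a complex that sits on the X and Y boxes of those promoters. In mice of the b haplotype, such as C57BL/6, the alpha chain gene of I-E is not expressed, so the product of H2-Eb1 lacks its partner.

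RefSeq promoter windows (250 bases before to 50 after the start, build GRCm38.p6, a different build from the gene positions above) were matched for H2-Aa, H2-Eb1, H2-DMa and H2-DMb1. H2-Ab1, Cd74 and Ciita had no entry. Both strands were searched for AACNGATG, letters of the X box, for ATTGG, letters of the Y box, and for TGACGTCA, a cyclic AMP response element. These letters were written down after the windows had been read. AACNGATG occurred in 2.32% of 32851 windows, ATTGG in 37.4% and TGACGTCA in 1.79%. AACNGATG followed by ATTGG on the same strand with 10 to 40 bases between them occurred in 7 windows, those of H2-DMb1, H2-DMb2, H2-Eb1, H2-Eb2, BC051142, Gm35444 and Scgb2b20, which is 0.0213%. The stretches below are shown because they place these letters side by side in members and in their paralogs H2-DMb2 and H2-Eb2, with the X letters (in H2-Aa the TGACGTCA) and the Y letters in capitals.
H2-DMb1: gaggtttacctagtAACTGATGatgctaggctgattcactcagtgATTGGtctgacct
H2-DMb2: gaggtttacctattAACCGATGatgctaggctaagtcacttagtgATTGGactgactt
H2-Eb1: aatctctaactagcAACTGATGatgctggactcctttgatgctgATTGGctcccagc
H2-Eb2: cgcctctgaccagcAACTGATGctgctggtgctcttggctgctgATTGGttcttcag
H2-Aa: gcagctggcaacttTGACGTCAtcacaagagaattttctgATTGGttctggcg
They lie at chr17:34153085-34153142, chr17:34145114-34145171, chr17:34305764-34305820, chr17:34325531-34325587 (all plus strand) and chr17:34287859-34287911 (minus strand). The letters stood 23 bases apart in H2-DMb1 and H2-DMb2 and 22 in H2-Eb1 and H2-Eb2. The pair began 92 bases before the start of H2-DMb1, 121 before H2-DMb2, 89 before H2-Eb1 and 130 before H2-Eb2. In H2-Aa the TGACGTCA began 74 bases before the start and stood 18 bases from the Y letters. These H2-Aa distances start from another element and do not compare with the others. H2-DMa had 2 windows, with no X letters in either and the Y letters in 1.

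Conventional dendritic type 2-like cells (cDC2-like) had the highest class II chains and Cd74 of all classes, followed by conventional dendritic type 1-like cells (cDC1-like). In cDC2-like cells (538 cells), Cd74 stood at 22034, 18293, 18650 and 19599 CPM in saline mice 1 to 4 and at 17136, 20398, 18868 and 19858 CPM in ancrod mice 1 to 4. In cDC1-like cells (117 cells), Cd74 stood at 14741, 14096, 13947 and 14836 CPM in the saline mice and at 11161, 14876, 13176 and 10377 CPM in the ancrod mice. Cd74 was higher in cDC2-like than in cDC1-like cells of the same mouse in 8 of 8 mice, and the ranges did not overlap. The same held for H2-Aa, H2-Ab1 and H2-Eb1. H2-Aa had a median over mice of 10563 CPM in cDC2-like and 7180 CPM in cDC1-like cells.

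The editor H2-DM and the coactivator had cDC1-like cells in first place instead. The median of H2-DMa was 590 CPM in cDC1-like and 569 CPM in cDC2-like cells, that of H2-DMb1 690 and 575 CPM, and that of Ciita 155 and 146 CPM. For these 3 genes cDC1-like cells stood above cDC2-like cells in 6, 7 and 6 of 8 mice, with overlapping ranges, so the 2 classes were not separated. H2-DMa and H2-DMb1 of cDC2-like cells lay above those of monocyte-like cells in 8 of 8 mice without overlap.

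**Figure D1:**
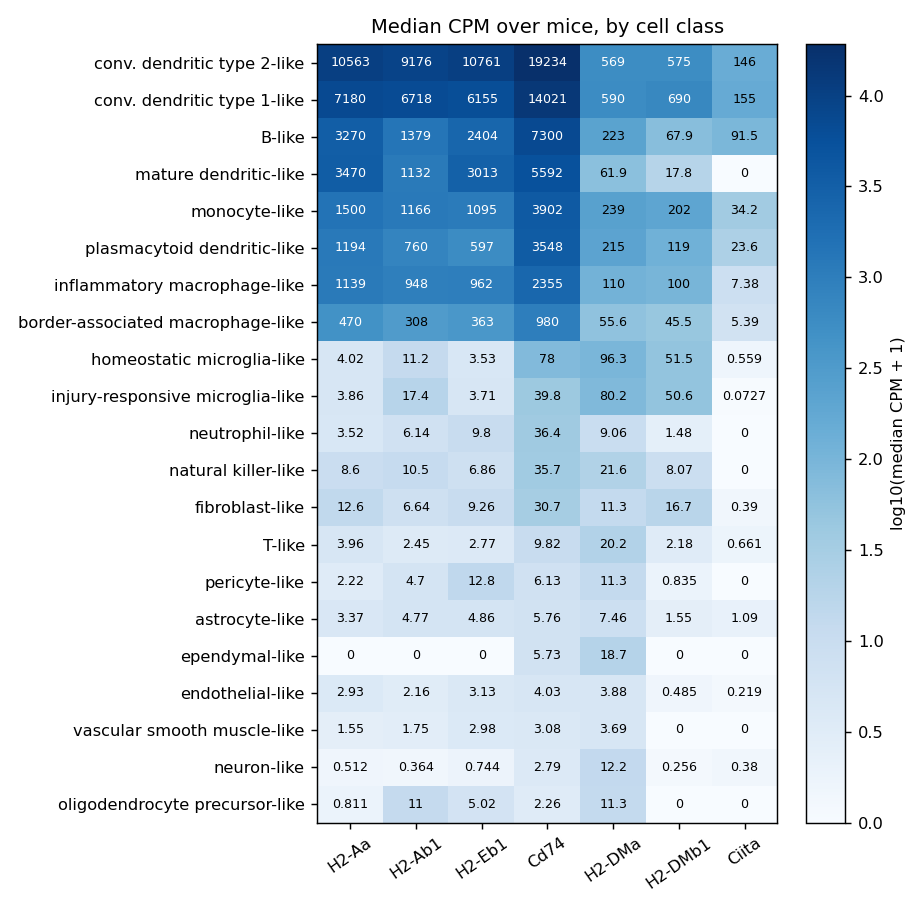
Median CPM over mice of the 7 genes (columns) in the 21 cell classes (rows), with the value written in each field and the color on a log10 scale of CPM plus 1. The 8 upper classes have the highest levels of the 3 chains and Cd74, from a Cd74 median of 19234 CPM in cDC2-like to 980 CPM in border-associated macrophage-like cells, while H2-DMa and H2-DMb1 stay visible in the microglia rows below.

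Below the 2 conventional dendritic classes, neighbors in the order of Cd74 mostly overlapped. B-like cells (55 cells) had a median Cd74 of 7300 CPM, mature dendritic-like cells (27 cells) 5592 CPM, monocyte-like cells (717 cells) 3902 CPM, plasmacytoid dendritic-like cells (86 cells) 3548 CPM and inflammatory macrophage-like cells (2558 cells) 2355 CPM. B-like cells were above mature dendritic-like cells in 6 of 8 mice, those above monocyte-like cells in 5 and those above plasmacytoid dendritic-like cells in 5. Inflammatory macrophage-like cells were below plasmacytoid dendritic-like cells in 7 mice and above border-associated macrophage-like cells (871 cells) in 8, the ranges overlapping. Ciita was counted 3 times in the 27 mature dendritic-like cells, so its median of 0 CPM there rests on little depth.

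Border-associated macrophage-like cells (BAM-like), which sit around vessels and in the coverings of the brain, varied widely between mice. Their Cd74 was 1052, 187, 448 and 1705 CPM in saline mice 1 to 4 and 434, 1297, 1148 and 909 CPM in ancrod mice 1 to 4. Their H2-Aa was 507, 72.2, 197 and 720 CPM in the saline mice and 168, 526, 525 and 432 CPM in the ancrod mice. Saline mice held both the lowest and the highest values. These levels weight cells by their depth, and with every cell thinned to 2000 UMIs the mean over mice of the summed members in BAM-like cells was 3292 instead of 2007 CPM. Cells that carried at least 5 UMIs of the 3 chains and Cd74 after thinning to 2000 UMIs (class II-high cells) made up 11.5, 5.68, 8.40 and 29.0% of BAM-like cells in the saline mice and 7.53, 17.4, 15.6 and 13.2% in the ancrod mice.

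Class II-high cells made up 100% of cDC1-like, 99.3% of cDC2-like, 92.7% of B-like, 85.2% of mature dendritic-like and 79.1% of plasmacytoid dendritic-like cells. In the macrophage lineage they were a part of each class, 39.3% of monocyte-like, 25.9% of inflammatory macrophage-like and 13.2% of BAM-like cells. The cut fell in a thinly filled range, with 43 inflammatory macrophage-like cells just outside it at 4 UMIs and 34 just inside at 5 UMIs. Class II-high cells made up 1.57% of homeostatic microglia-like, 0.483% of injury-responsive microglia-like, 0.744% of fibroblast-like and 0.0405% of endothelial-like cells. Saline mouse 4 gave most of the microglial ones, and without it the shares were 0.246% and 0.107% in these 2 microglia classes. The share with any Cd74 UMI at 2000 UMIs per cell (in parentheses without thinning) was 57.7% (77.1%) in monocyte-like and 37.2% (57.6%) in inflammatory macrophage-like cells. It was 0.46% (6.94%) in neuron-like cells, which should lack the gene, and 0.99% (5.41%) in endothelial-like cells. Median depth was 14865, 23744.5, 16615.5 and 10009 UMIs in these 4 classes.

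Free RNA, read from droplets with at most 100 UMIs, held Cd74 at 294 to 605 CPM and H2-Aa at 138 to 314 CPM over the 8 libraries. Levels of Cd74 in neuron-like (0 to 6.29 CPM), pericyte-like (0.95 to 9.07 CPM), endothelial-like (2.88 to 11.1 CPM) and astrocyte-like cells (3.55 to 13.1 CPM) lay far under those of free RNA. They cannot be told from background here. Fibroblast-like Cd74 (11.8 to 90.0 CPM) also lay under free RNA and may be background in part. The median H2-Aa and H2-Eb1 of homeostatic microglia-like cells (4.02 and 3.53 CPM) were near those of astrocyte-like cells (3.37 and 4.86 CPM), so in most mice these 2 cannot be told from background. Microglial Cd74 was counted in 14.2% of homeostatic microglia-like cells at 2000 UMIs per cell, above the share in neuron-like cells. That share takes in saline mouse 4, with Cd74 at 375 CPM. In the other mice microglial Cd74 (44.3 to 125.6 CPM) also lay under free RNA and may be background in part.

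**Figure D2:**
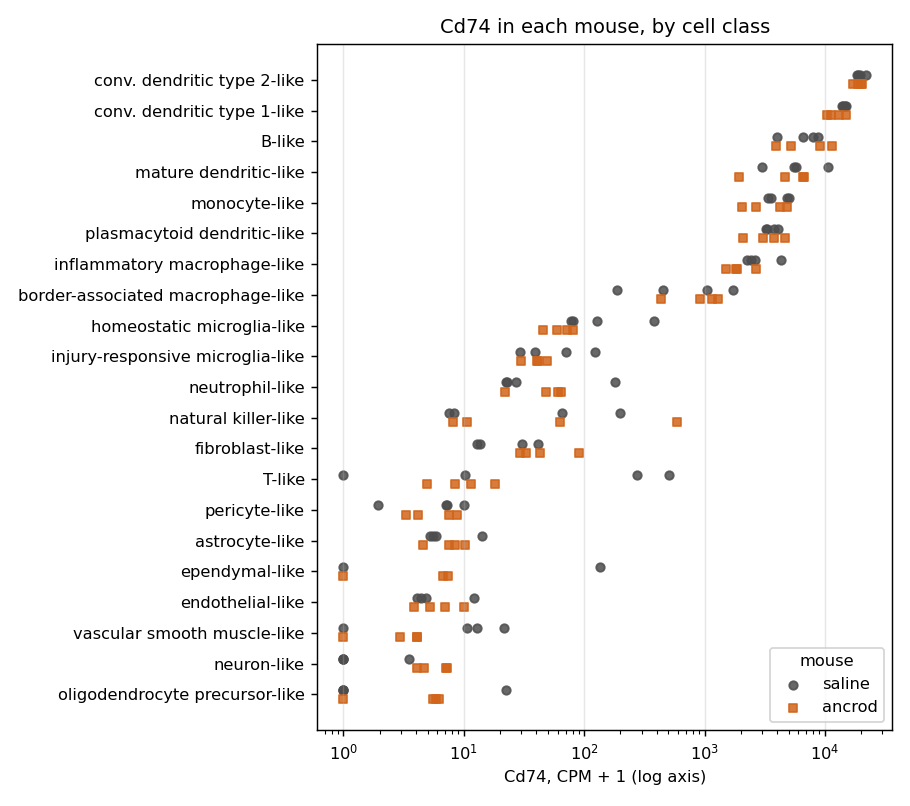
Cd74 (CPM plus 1, log axis) in each of the 4 saline mice (circles) and 4 ancrod mice (squares) for 21 cell classes, ordered by the median. Saline and ancrod points mix in most classes, saline mouse 4 stands right of the others in homeostatic microglia-like cells at 375 CPM, and T-like and natural killer-like cells hold lone high mice.

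The lone high mice among T-like and natural killer-like cells came from single cells. In T-like cells 1 cell held 155 of the 158 Cd74 UMIs of saline mouse 1, and 1 cell held 359 of the 364 of saline mouse 4. In natural killer-like cells 1 cell held all 235 of ancrod mouse 1. Class II levels of these 2 classes are therefore not described further.

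As a share of all UMIs of the 7 genes, cDC2-like cells gave a median of 41.3% (27.7 to 56.9% over mice) while being 1.04% of the cells. Inflammatory macrophage-like cells gave 29.95% (22.3 to 34.7%) from 5.63% of the cells. cDC1-like cells gave 6.69% (1.47 to 15.4%) from 0.141%, monocyte-like cells 6.44% (1.80 to 11.7%) from 1.22%, and homeostatic microglia-like cells 4.60% (2.05 to 16.2%) from 31.1%, the highest value being that of saline mouse 4. The class II message of the kept cells thus lay mainly in a small dendritic class and in inflammatory macrophage-like cells.

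Homeostatic microglia-like cells (13275 cells) and injury-responsive microglia-like cells (4143 cells) had a class II profile of another shape. H2-DMa stood at 102, 95.3, 79.6 and 117 CPM in homeostatic microglia-like cells of saline mice 1 to 4 and at 81.6, 89.2, 97.2 and 104 CPM in ancrod mice 1 to 4. That overlapped the H2-DMa of inflammatory macrophage-like cells, which was 162, 114, 106 and 130 CPM in the saline mice and 102, 100.2, 124 and 102 CPM in the ancrod mice. The H2-Aa of homeostatic microglia-like cells was far lower, with a median of 4.02 CPM against 1139 CPM in inflammatory macrophage-like cells. The median of H2-DMb1 was 51.5 against 100 CPM. H2-DMa was thus near a macrophage level in microglia, and the chains were not.

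Counted as H2-DM UMIs (H2-DMa plus H2-DMb1) per 100 UMIs of the 3 chains, pooled over mice, homeostatic microglia-like cells had 275.6 and injury-responsive microglia-like cells 424.9. The same ratio was 12.9 in monocyte-like, 11.05 in BAM-like, 7.1 in inflammatory macrophage-like, 6.6 in cDC1-like, 3.7 in cDC2-like and 1.4 in mature dendritic-like cells. By mouse, the ratio in homeostatic microglia-like cells was 216, 852, 837 and 72.9 in the saline mice and 795, 747, 845 and 842 in the ancrod mice. The 2 low values are saline mice 1 and 4, the mice with the highest chain levels there. They draw the pooled 275.6 below the values of all other mice. The pooled order of the 2 microglia classes is therefore not read as a difference. The denominator of the ratio lies near background in microglia. On the same ratio astrocyte-like cells had 72.0, endothelial-like cells 54.0 and fibroblast-like cells 61.0. Neuron-like cells, also near background, had a median H2-DMa of 12.2 CPM against 0.51 CPM H2-Aa, 0.36 CPM H2-Ab1 and 0.74 CPM H2-Eb1. H2-DM ahead of the chains is thus not particular to microglia. In cDC2-like cells the ratio ran from 3.3 to 4.1. Free RNA had 12.5 to 26.2, so the microglial ratio was above that of free RNA in all 8 mice.

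The invariant chain also ran ahead of the chains in microglia. Cd74 UMIs per 100 chain UMIs were 215.1 in homeostatic and 156.2 in injury-responsive microglia-like cells, against 63.9 in cDC2-like, 67.6 in cDC1-like, 78.1 in inflammatory macrophage-like, 98.0 in monocyte-like, 107.0 in B-like and 137.9 in plasmacytoid dendritic-like cells. Free RNA had 66.9 to 83.8. The class values are pooled over mice, and the homeostatic one takes in saline mouse 4 with its high chain levels. Ciita UMIs per 1000 chain UMIs were 15.2 in homeostatic microglia-like, 13.1 in B-like, 8.0 in cDC1-like, 4.6 in cDC2-like and 2.8 in inflammatory macrophage-like cells. The classes near background had 87.2 (astrocyte-like) and 25.9 (endothelial-like) from 53 and 19 Ciita UMIs, so the microglial value is not set apart from them. These ratios compare classes for the same genes, since UMIs from 3′ ends do not rank genes against each other.

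**Figure D3:**
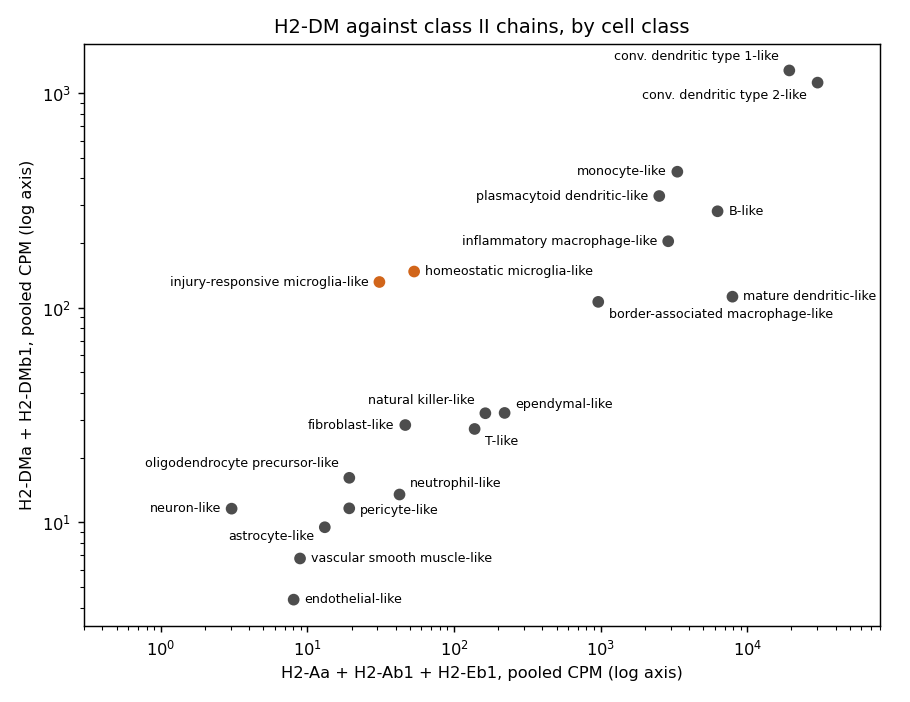
Summed H2-DMa and H2-DMb1 against summed H2-Aa, H2-Ab1 and H2-Eb1, both as CPM pooled over the 8 mice on log axes, with 1 point per cell class. Both microglia classes (orange) lie near the H2-DM level of BAM-like and inflammatory macrophage-like cells but far to their left, at 275.6 and 424.9 H2-DM UMIs per 100 chain UMIs.

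H2-DMb2, a near copy of H2-DMb1 that can share reads with it, was counted at 453.8 UMIs per 100 H2-DMb1 UMIs in B-like cells and 127.8 in mature dendritic-like cells. It was at 28.7 in cDC2-like, 8.9 in cDC1-like, 6.0 in homeostatic microglia-like and 1.6 in monocyte-like cells. Levels of H2-DMb1 are uncertain to the extent that reads were split between the copies, most of all in B-like cells.

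Over the 21 classes, the mean log2(CPM + 1) of the members ran together, with a Pearson correlation to the mean pattern of the 7 of 0.994 for H2-Ab1, 0.984 for Cd74, 0.983 for H2-Aa, 0.975 for H2-Eb1, 0.918 for Ciita, 0.909 for H2-DMb1 and 0.904 for H2-DMa. Each gene is part of that mean, and all points share libraries. Outside the members, the 10 nearest genes were Gdi2 (0.908), Kynu (0.889), A530032D15Rik (0.881), Rnase6 (0.881), Gm6377 (0.854), H2-DMb2 (0.846), Clec2g (0.843), Napsa (0.838), Slamf7 (0.831) and Pkib (0.830). Pooled over mice, Napsa, an aspartic protease, stood at 576 CPM in cDC2-like, 356 CPM in monocyte-like and 329 CPM in B-like cells. Rnase6 stood at 1078 CPM in plasmacytoid dendritic-like and 112 CPM in cDC2-like cells, an order unlike that of the members.

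Within inflammatory macrophage-like cells, class II levels depended on the cluster. The largest cluster (1358 cells, led by Ms4a7 and Gpnmb) had 671 CPM Cd74, and the second (714 cells, led by Arg1, Cd36 and Il7r) had 4265 CPM. A cluster of dividing cells (329 cells, led by Mki67 and Top2a) had 3709 CPM and one led by the interferon-induced genes Slfn4, Oas3 and Rsad2 (113 cells) had 2155 CPM. Cd74 in the Arg1 cluster was 8887, 2465, 4773 and 5998 CPM in the saline mice and 2942, 4900, 3822 and 5676 CPM in the ancrod mice, against 1082, 422, 1011 and 844 CPM and 621, 394, 695 and 625 CPM in the Gpnmb cluster. The Arg1 cluster was above the Gpnmb cluster in every mouse. Members were left out of the clustering, but genes that vary with them were not, so this is a description.

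Homeostatic microglia-like cells of saline mouse 4 stood apart from those of the other 7 mice. Their Cd74 was 375 CPM, against 125.6, 80.4 and 76.5 CPM in saline mice 1 to 3 and 44.3, 58.7, 70.5 and 79.5 CPM in ancrod mice 1 to 4. Their H2-Aa was 80.7 CPM, against 21.1, 3.51 and 3.41 CPM in the other saline mice and 3.28 to 4.44 CPM in the ancrod mice. Ciita was 3.12 CPM, against 0.18 to 0.63 CPM in the other 7. All 7 members were highest of 8 in this mouse, but H2-DMa and H2-DMb1 only by a ratio of 1.23 and 1.16 to the median of the others, against 21.2 for H2-Aa, 17.1 for H2-Eb1, 9.61 for H2-Ab1 and 4.91 for Cd74.

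A part of the cells, spread over the microglia clusters, carried much of this. Class II-high cells were 180 of 1887 (9.54%) in saline mouse 4, with 57 more at 4 UMIs and 31 of the 180 at 5 UMIs, and 0.08 to 0.51% in the other 7 mice. Its Cd74 was highest of 8 in 12 of 13 microglia clusters, the exception being a cluster to which this mouse gave 8 cells. Its injury-responsive microglia-like cells had 16 of 411 class II-high (3.89%) against 0 to 0.49% in the others, and its BAM-like cells 27 of 93. Of its 46 ependymal-like cells, 32 carried Cd74, with 184 UMIs in all and at most 46 in 1 cell. H2-Aa stood at 171 CPM there, but the other mice gave at most 15 such cells each.

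**Figure D4:**
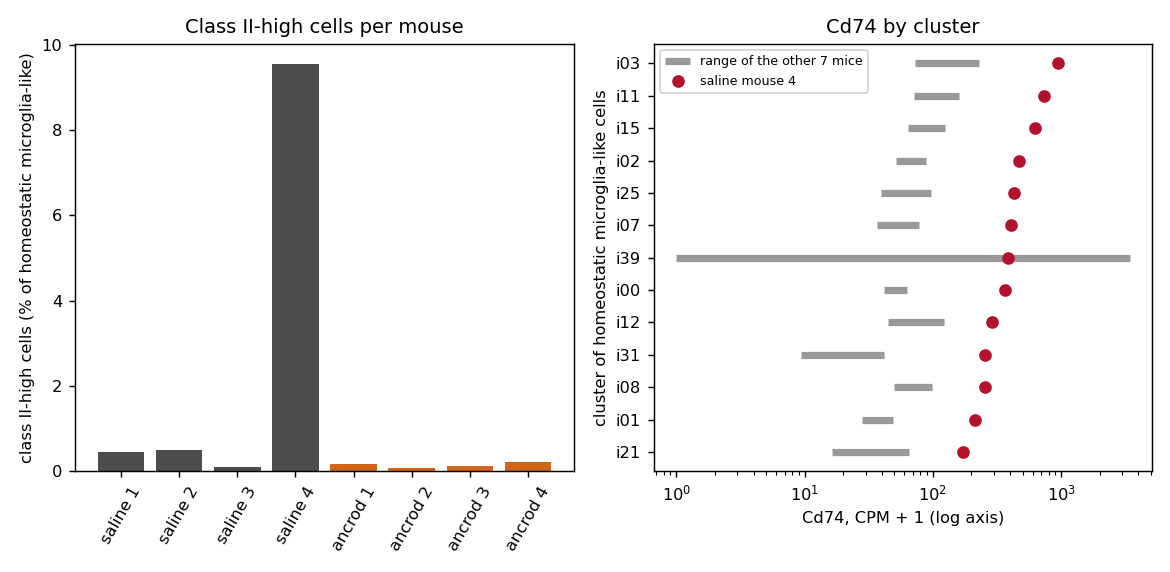
Left, class II-high cells as a percentage of homeostatic microglia-like cells in each mouse, 9.54% in saline mouse 4 and at most 0.51% in the other 7. Right, Cd74 (CPM plus 1, log axis) in the 13 clusters of that class for saline mouse 4 (red points) and the range of the other mice (gray bars), where saline mouse 4 lies above the range in 12 of 13.

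Compared with the other 1707 homeostatic microglia-like cells of that mouse, the 180 class II-high cells had more of the members the selection did not use. Ciita was 9.92 against 2.47 CPM, H2-DMa 192 against 110 CPM and H2-DMb1 98.3 against 56.0 CPM. The microglial genes P2ry12 (814 against 802 CPM) and Sall1 (ratio 0.99) were level, the 9 class I genes had ratios of 1.09 to 1.24, and the 6 costimulation genes ran from 0.83 (Pdcd1lg2) to 1.86 (Cd40, 44 UMIs). All 8 genes of the interferon-induced list were lower in the 180 cells, with ratios from 0.47 (Usp18) to 0.92 (Oasl2). The interferon gamma list went both ways, with Socs1 at 0.75, Iigp1 at 0.77 and Jak2 at 1.21. Its gene Gbp2 stood at 69.0 against 46.1 CPM, and Ifng had 0 UMIs in both sets of cells. The other 1707 cells were also above the whole class of the other 7 mice in 5 of the 7 members, with 192 CPM Cd74 (others at most 125.6), 30.7 CPM H2-Aa (at most 21.1), 52.4 CPM H2-Ab1 (at most 28.9), 2.47 CPM Ciita (at most 0.63) and 109.9 CPM H2-DMa (at most 104). H2-Eb1 (20.4 CPM, others at most 23.5) and H2-DMb1 (56.0 CPM, others at most 56.1) were not. These are cells of 1 mouse, so no test applies.

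In that mouse all 9 genes of the class I list, which covers presentation to CD8+ T cells, were also highest of 8 in homeostatic microglia-like cells, among them Tap1 (ratio 1.85), Psmb9 (1.80), H2-K1 (1.78) and Nlrc5 (1.74). Over all 12641 tested genes with a unique symbol, 17.3% were highest and 13.04% lowest of 8 in this mouse. Of the interferon gamma list 6 of 12 were highest, among them Iigp1 (2.55) and Gbp2 (1.70), and 2 were lowest (Jak1 and Jak2). The antigen processing list had 5 of 9 highest, interferon-induced genes 3 of 8, the other class II genes 1 of 4, Cd74 as a receptor 1 of 5, class II transcription 0 of 11, costimulation 0 of 6 and dividing cells 0 of 6. Ifng itself, the cytokine that induces Ciita, was highest in saline mouse 4 in T-like cells (314 CPM against 37.2 to 191) and in natural killer-like cells (315 CPM against 61.6 to 262). Its part in the microglial levels was not tested.

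Summed markers of cDC2 cells within homeostatic microglia-like cells were 4.2 CPM in saline mouse 4 and 4.7 to 7.1 CPM in the others, and summed B cell markers 19.1 against 15.7 to 20.0 CPM. In the 180 cells, cDC2 markers summed to 7.4 CPM, against 3.9 CPM in the other cells of this mouse, and B cell markers to 19.0 against 19.2 CPM. Monocyte markers summed to 21.1 against 8.4 CPM, with 1 UMI of Ccr2 and 0 of Chil3 and F10 in the 180 cells. That sum thus came from other monocyte markers. BAM markers summed to 126 against 225 CPM. The part of all these markers in the result was not tested. Their median depth was 12392.5 UMIs against 13481 in the other cells of this mouse, and the doublet score was 0.533 in both. Free-RNA Cd74 of this library was 371 CPM, within the range of the 8. Ancrod mouse 4, the other mouse of batch 2, had 0.23% class II-high cells. The part of the batch in this result was not tested.

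To ask whether fibrinogen depletion went with class II expression, ancrod and saline mice were compared gene by gene within each class with edgeR's quasi-likelihood test on UMIs summed per mouse, adjusted over all genes of the class. None of the members passed in any class. Of the 112 combinations of member and class in 16 classes, 63 had enough counts, 0 of 63 had an adjusted p under 0.05 and 12 had an unadjusted p under 0.05, of which 10 were lower and 2 higher in ancrod mice. Over all genes in these classes 3.23% of tests were lower and 3.61% higher at that level. The members share the same mice and ran together over the classes, so counts of them, here and below, are not independent observations. The balance of 10 lower and 2 higher depended on saline mouse 4. Without it, only Cd74 stayed under 0.05 among homeostatic microglia-like members, and Cd74 and H2-Aa joined H2-Eb1 and H2-DMb1 in fibroblast-like cells. H2-Ab1 in astrocyte-like cells (log2 0.95) and H2-DMa in injury-responsive microglia-like cells (log2 0.21) also fell under 0.05, both higher in ancrod mice. The inflammatory macrophage-like members under 0.05 stayed there. DESeq2 likewise called 0 of 63, with 14 unadjusted. The lowest adjusted p was 0.246 with edgeR and 0.175 with DESeq2. Over all genes, edgeR called 0.188% in pericyte-like, 0.0285% in T-like and 0.00781% in fibroblast-like cells and 0% in the other 13 classes. With no minimum count, 8 of 111 tests passed, all of the chains and Cd74 in T-like and natural killer-like cells, where the single cells named above carry the counts. The shares over all genes just given are from the filtered fit and do not cover this setting.

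In inflammatory macrophage-like cells all 7 members had lower estimates in ancrod mice, and none passed the test (0% of 10911 genes passed). Cd74 was 4310, 2263, 2607 and 2448 CPM in saline mice 1 to 4 and 1807, 1859, 2692 and 1503 CPM in ancrod mice 1 to 4. Saline mouse 1 was high and ancrod mouse 3 lay within the saline range, so the groups overlapped. The log2 difference was −0.57 (SE 0.22, n = 4 and 4, edgeR adjusted p = 1.00). Those of the chains were −0.61 (SE 0.22) for H2-Aa, −0.68 (SE 0.23) for H2-Ab1 and −0.64 (SE 0.23) for H2-Eb1, and those of H2-DMa and H2-DMb1 were −0.25 (SE 0.13) and −0.38 (SE 0.17). Of the 7, 5 had an unadjusted p under 0.05 in this direction, as had 1.33% of all genes of the class, and the median over all genes was 0.00.

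Saline mouse 1 carried a part of that difference. Without it, the log2 difference was −0.33 for Cd74, −0.37 for H2-Aa, −0.43 for H2-Ab1 and −0.39 for H2-Eb1. Within batches, Cd74 differed by −0.50 in batch 1 and −0.70 in batch 2, where each group has 1 mouse. Pooled Cd74 was 557 CPM in ancrod against 866 CPM in saline mice in the Gpnmb cluster. It was 3968 against 4699 CPM in the Arg1 cluster, where saline mouse 1 had 8887 CPM from 26 cells. The other saline mice had 2465 to 5998 CPM there, and the ancrod mice 2942 to 5676 CPM. In the cluster of dividing cells pooled Cd74 was 3166 against 4567 CPM. Saline mouse 1 had 9833 CPM there, the other saline mice 2085 to 5075 CPM and the ancrod mice 2065 to 3897 CPM. In the cluster of interferon-induced genes pooled Cd74 was 2033 against 2296 CPM. The saline value there rested on mouse 4 (4169 CPM), since saline mice 1 to 3 had 414, 1096 and 593 CPM. Ancrod mice 1 to 4 had 4078, 2074, 1794 and 53.0 CPM there, from 13 to 19 cells each. The Arg1 cluster made up 24.8% of the class in ancrod and 29.1% in saline mice on average. Class II-high cells were 35.2, 26.7, 30.6 and 30.7% of the class in the saline mice and 21.4, 21.9, 30.5 and 19.2% in the ancrod mice, the ranges again overlapping.

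In homeostatic microglia-like cells the estimates of the chains, Cd74 and Ciita were lower in ancrod mice, and saline mouse 4 set their size. The log2 difference was −2.72 (SE 0.88) for H2-Aa, −2.54 (SE 0.86) for H2-Eb1, −1.80 (SE 0.65) for H2-Ab1 and −1.32 (SE 0.45) for Cd74 (edgeR adjusted p = 0.454 for each of the 4), and −1.55 (SE 0.68) for Ciita (edgeR adjusted p = 0.458). Without saline mouse 4 it was −1.14, −1.30, −0.57, −0.52 and −0.44 in that order. Saline mouse 1 had the next highest chain levels, with H2-Aa at 21.1 CPM against a mean of 3.94 CPM in ancrod mice. H2-Aa of saline mice 2 and 3 lay within the ancrod range, so what remained for H2-Aa rested on saline mouse 1. With all mice, H2-DMa and H2-DMb1 were at −0.03 (SE 0.10) and −0.00 (SE 0.07). Of the 7 members, 5 had an unadjusted p under 0.05 and were lower, against 4.6% of the 12654 genes tested, of which 0% passed the adjusted threshold. Without saline mouse 4 only Cd74 stayed under 0.05 (edgeR unadjusted p = 0.0206). Cd74 differed by −0.68 in batch 1 and −2.22 in batch 2.

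In fibroblast-like cells, which build the scar after PT, estimates of the 6 tested members were higher in ancrod mice and none passed. Cd74 was 12.7, 29.7, 11.8 and 40.4 CPM in the saline mice and 90.0, 28.2, 31.7 and 41.7 CPM in the ancrod mice. Only ancrod mouse 1 lay above the saline range by more than a small margin. The log2 difference was 0.93 (SE 0.45) for Cd74, 1.38 (SE 0.58, edgeR adjusted p = 0.288) for H2-Eb1 and 0.55 (SE 0.20, edgeR adjusted p = 0.246) for H2-DMb1. The last 2 had an unadjusted p under 0.05, against 6.99% of all genes in this direction. Without ancrod mouse 1 the values for Cd74 and H2-Eb1 were 0.47 and 0.54, and with doublets kept they were 0.04 and −0.08. Without saline mouse 4 they were larger, at 1.32 and 1.75 (edgeR adjusted p = 0.290 and 0.307). Class II-high cells were 17 of 2285, and 1 cluster (254 cells, led by Penk, Ccn3 and Slc47a1) had 205 CPM Cd74 against 3.90 to 36.2 CPM in the others.

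**Figure D5:**
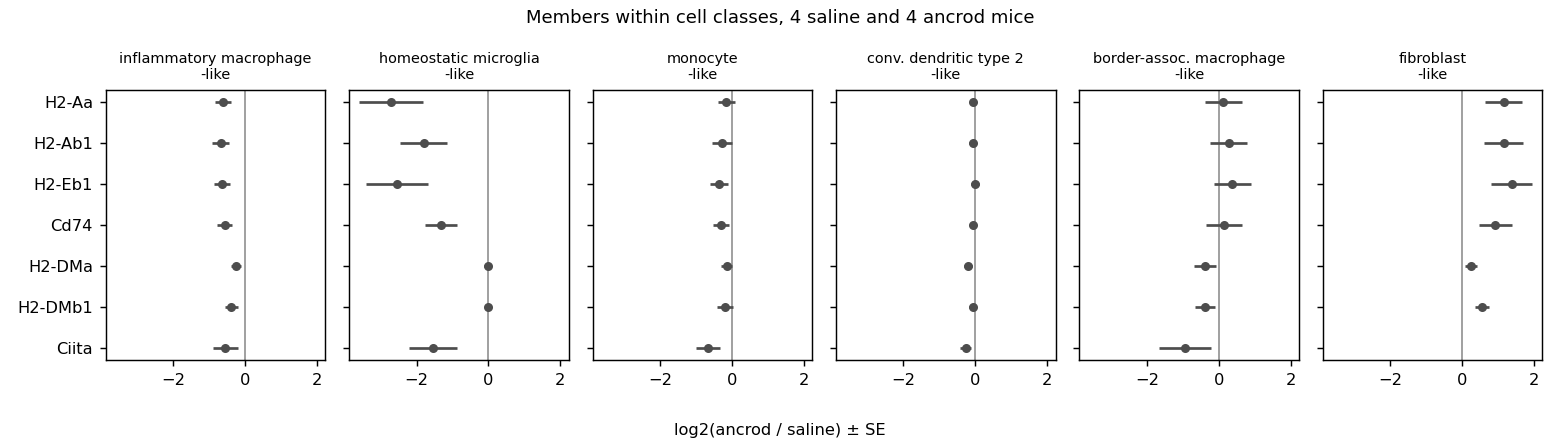
Log2 ratio of ancrod to saline mice (point) with its standard error (bar) for the 7 genes in 6 cell classes, 4 mice per group, by edgeR. Estimates lie left of 0 in inflammatory macrophage-like cells and, for the chains, Cd74 and Ciita, in homeostatic microglia-like cells, and right of 0 in fibroblast-like cells, none of them past an adjusted p of 0.05.

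No member passed in the remaining myeloid classes either. In cDC2-like cells the 7 log2 differences ran from −0.27 (Ciita, SE 0.16) to −0.01 (H2-Eb1), with Cd74 at −0.07 (SE 0.09). In monocyte-like cells they ran from −0.67 (Ciita, SE 0.34) to −0.15, with Cd74 at −0.31 (SE 0.22), from 4809, 3378, 3546 and 5028 CPM in saline mice and 2042, 4258, 2690 and 4818 CPM in ancrod mice. In BAM-like cells Cd74 was at 0.15 (SE 0.51), and Ciita at −0.94 (SE 0.72). Without saline mouse 4 these 2 were 0.76 and 0.47, so Ciita turned. In injury-responsive microglia-like cells Cd74 was at −0.69 (SE 0.35), H2-Aa at −0.97 and H2-Eb1 at −0.78. Saline mouse 4 carried these, and without it they were −0.16, 0.04 and −0.21, so H2-Aa turned. With an SE of 0.51, the BAM-like data leave room for a difference of either sign. cDC1-like, B-like, mature dendritic-like and plasmacytoid dendritic-like cells were too few per mouse for the test.

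Summed over all kept cells, Cd74 was 574, 443, 729 and 589 CPM in saline mice and 611, 961, 640 and 333 CPM in ancrod mice, with a log2 difference of 0.08 (SE 0.30). There 0 of 7 members passed (0% of 16173 genes), with 0 of 7 unadjusted and 0 of 7 by DESeq2. In such a sum, fewer cells of a type and less RNA per cell cannot be told apart, so the shares of the antigen-presenting classes stand beside it. cDC2-like cells were 0.967 ± 0.302% of kept cells in saline and 1.44 ± 0.631% in ancrod mice (SD, n = 4 each, exact two-sided permutation p = 0.229). Inflammatory macrophage-like cells were 4.34 ± 1.31% and 7.19 ± 1.86% (SD, n = 4 each, exact permutation p = 0.0857), with a difference of 3.43 percentage points in batch 1 and 1.11 in batch 2. These are shares of recovered cells. The paper also saw macrophage proportions trend higher in ancrod mice and gives easier dissociation with less fibrosis as the likely reason. That was not tested here. cDC1-like cells were 0.112% and 0.406% (exact permutation p = 0.114) and mature dendritic-like cells 0.0365% and 0.0867% (exact permutation p = 0.0857). B-like cells were 0.0999% of kept cells in ancrod and 0.149% in saline mice with no overlap, from only 5 to 7 and 7 to 10 cells per mouse. Their exact permutation p was 0.0286, the smallest that 4 against 4 mice allow, and adjusted over 10 classes p was 0.190 to 0.857. At least 6 of the 10 classes would have to reach that smallest p for any adjusted p to fall under 0.05, so this design could hardly pass a share.

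Of the lists of related genes, 1 gene passed in 1 class. Irf1, a transcription factor of the interferon gamma response, was higher in pericyte-like cells of ancrod mice (log2 1.52, SE 0.22, edgeR adjusted p = 0.00658), the only call among 130 tests of the interferon gamma list. The class I list had 0 calls in 130 tests and 5 unadjusted, all lower, and the estimates of its 9 genes were below 0 in inflammatory macrophage-like (median log2 −0.21, all genes 0.00), cDC2-like (−0.21, all genes 0.00), BAM-like, fibroblast-like and injury-responsive microglia-like cells. They were below 0 for 4 of 9 in homeostatic microglia-like (median 0.01), 3 of 9 in T-like (0.03) and 2 of 9 in astrocyte-like cells (0.20). The list of class II transcription factors had 0 calls in 126 tests and 4 unadjusted, all lower, among them Irf4 in homeostatic microglia-like (−0.54) and inflammatory macrophage-like cells (−0.84). Unadjusted counts stand against 3.61% higher and 3.23% lower over all 143770 tests of a gene in these 16 classes. The list for Cd74 as a receptor had 0 calls in 59 tests with 11 unadjusted higher and 1 lower, among them the coreceptor Cd44 in fibroblast-like (1.53, edgeR adjusted p = 0.181) and BAM-like cells (1.05, edgeR adjusted p = 0.230). The antigen processing list had 0 calls in 129 tests (2 unadjusted higher, 6 lower), costimulation 0 in 61 (2 and 1), dividing cells 0 in 64 (19 and 1), interferon-induced genes 0 in 91 (3 and 11) and the other class II genes 0 in 13 (1 and 0). In cDC2-like cells Marchf1, a ligase that removes class II from the surface, had a log2 difference of −0.57 (edgeR adjusted p = 0.640).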

How the data were processed

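The authors deposited raw UMI counts per gene and droplet for 8 libraries, 1 per mouse, made with 10x 3′ chemistry and Cell Ranger 7.1.0 (STAR) on GRCm39, with exonic and intronic reads and every droplet kept. The labels give the genotype Bl/J6 and female mice, whereas the methods name another substrain and both sexes. Ambient RNA was not subtracted. Droplets with at least 2000 UMIs and under 20% mitochondrial UMIs were kept, simulated doublets (2 per droplet) were used to remove 0.8% per 1000 droplets in each library (4.06 to 5.02%), and cells were clustered (3000 variable genes, 30 components, 20 neighbors, Leiden resolution 2) after 12 class II and related genes were left out. Classes required at least 3 markers in 10% of cells, and 168 of 172 markers were in the files. The members, lists and markers were chosen with earlier results of these data known. The rule named all members in every tested class, at most 4 genes per list with the smallest p in a class, and the 10 genes whose mean log2(CPM + 1) over classes correlated most with that of the members. Genes named in saline mouse 4, clusters and Marchf1 were chosen after their values were seen.

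Summed counts were tested with edgeR 4.0.16 (filterByExpr, TMM, quasi-likelihood, Benjamini-Hochberg at 0.05) in classes with at least 10 cells in at least 3 mice per group. DESeq2 1.42.0, a batch term, a replicate block, no filter, other cell filters, clustering and doublet settings, and leaving out each mouse were alternatives. Shares were compared by exact two-sided permutation over mice. Intervals and limits from counts cover counting error only. On simulated counts edgeR recovered 98% of 2-fold changes in homeostatic microglia-like (12654 genes), 90.7% in inflammatory macrophage-like (10911 genes) and 88.4% in monocyte-like cells (7350 genes). These used 1 spread for all genes and changed many genes at once, with 206, 191 and 181 calls in these classes. The real comparison had 0 calls in each of them, which makes the adjustment stricter. The recovery therefore does not apply to the members in these classes. In homeostatic microglia-like cells the chains, Cd74 and Ciita also had standard errors of 0.45 to 0.88. Python 3.11.15, numpy 2.4.6, scipy 1.17.1, leidenalg 0.10.2 and R 4.3.3 were used.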

Additional observations from a re-analysis of the deposited data

Results flagged for a closer look

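In 12 of 132 groups of 4 mice, 1 mouse lay far from the other 3, where chance gives about 1 group in 20. The groups share mice and hold genes that ran together, so the flags are not independent. Of these, 4 were saline mouse 4. In homeostatic microglia-like cells it had 375 CPM Cd74 (others of its group 76.5 to 125.6) and 3.12 CPM Ciita (0.54 to 0.56). In monocyte-like cells it had 1938 CPM H2-Ab1 (1132 to 1184) and 281 CPM H2-DMb1 (197 to 207). In ancrod mouse 4 monocyte-like H2-DMb1 was 326 CPM (154 to 176).

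In inflammatory macrophage-like cells, Cd74 was 4310 CPM in saline mouse 1 (2263 to 2607 in its group) and H2-DMa was 124 CPM in ancrod mouse 3 (100.2 to 102). In fibroblast-like cells, ancrod mouse 1 had 51.3 CPM H2-Aa (12.3 to 14.6), 32.6 CPM H2-Ab1 (6.23 to 10.7) and 44.4 CPM H2-Eb1 (8.93 to 11.6). Over all kept cells, ancrod mouse 4 was low in H2-DMb1 at 33.7 CPM (48.9 to 50.0). Mature dendritic-like cells were 0.0355% of kept cells in ancrod mouse 2 (0.102 to 0.107% in its group).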

How the results depend on the processing

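The count of members called stayed at 0 under each alternative except no filter on low counts, which gave 8 calls in 111 tests. Number 4 marks batch 2 in both groups and numbers 1 to 3 share only a number. Same-numbered mice did not deviate together in every pair (−0.33, −0.14, 0.03 and 0.24 over all kept cells), and the replicate block gave 0 calls of 63 with 9 unadjusted and moved the pericyte-like count over all genes from 17 to 78. Leaving out 1 mouse at a time, log2 differences crossed 0 for, among others, H2-DMa (−0.102 to 0.0602) and H2-DMb1 (−0.0436 to 0.0426) in homeostatic microglia-like cells, H2-Aa in monocyte-like cells (−0.350 to 0.0558), and H2-Eb1 (−0.0763 to 0.0409) and Cd74 (−0.109 to 0.0033) in cDC2-like cells. Without saline mouse 4, Ciita in BAM-like cells went from −0.942 to 0.473. H2-Aa in astrocyte-like cells then went from −0.491 to 0.044, and Cd74 in endothelial-like cells from 0.0041 to −0.165. With no filter H2-Eb1 in cDC2-like cells was 0.0047. With doublets kept, fibroblast-like H2-Aa, H2-Ab1 and H2-Eb1 turned to −0.0552, −0.0232 and −0.0774. The difference in shares ran from −0.557 to 0.657 percentage points for monocyte-like and from −2.55 to 0.358 for injury-responsive microglia-like cells. Summed members moved from 2007 to 3292 CPM in BAM-like cells when every cell was thinned to 2000 UMIs. With doublets kept they moved from 18.5 to 75.6 CPM in endothelial-like, from 36.5 to 228 CPM in pericyte-like and from 32.1 to 89.7 CPM in astrocyte-like cells, and at Leiden resolution 1 to 61.2 CPM in the last.

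Counts over all genes differed more: DESeq2 called 1034 against 0 over all kept cells, 288 against 1 in fibroblast-like, 47 against 17 in pericyte-like and 45 against 0 in endothelial-like cells. Pericyte-like calls were 149 with no filter, 38 with a batch term, 26 with doublets kept, 8 at a minimum of 4000 UMIs and 2 to 62 leaving out 1 mouse. Depth limited B-like, mature dendritic-like and plasmacytoid dendritic-like cells, which numbered 55, 27 and 86. The causes of these differences were not tested.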
